A study of Mus musculus with 12 samples.

Results

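The genes described here encode 9 enzymes that make or take apart asialo-GM1 (asGM1), the cell-surface glycolipid by which the CD8+ T cells of this study were sorted. They are Ugcg, B4galt5, B4galt6, B4galnt1 and B3galt4 on the synthetic side, and Glb1, Hexa, Neu1 and Neu3 on the breakdown side. The members were chosen by gene symbol, 9 of the 56941 genes in the deposited count table, and all 9 passed the filter on low counts that left 18657 genes for testing. The members and the gene lists below were chosen with earlier results of these data known. Their counts beside the share of all genes are therefore a description only. The libraries come from CD8+ T cells of tumours of Panc02, a pancreatic cancer cell line of the mouse, carried by C57BL/6J animals of wild type genotype. The sort kept DAPI-, CD45.2+ and CD8+ cells, that is living white blood cells that carry CD8, and divided them by surface asGM1. The 4 groups, of 3 libraries each, were asGM1+ and asGM1- cells after anti-PD-1, an antibody against the checkpoint receptor PD-1, and asGM1+ and asGM1- cells after an isotype control antibody. All groups share the tumour line, the strain and the CD8 gate, and the labels name no gate on CD3 or the T cell receptor. The labels do not say whether the replicates came from separate mice, so the p-values measure only the spread between these libraries.

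Asialo-GM1 is assembled in the Golgi on a ceramide anchor: a glucose is added first, then a galactose, then an N-acetylgalactosamine and a terminal galactose. The first galactose yields lactosylceramide, at which the pathway forks: if a sialyltransferase adds sialic acid, the product enters the ganglioside series, and if it does not, the asialo series to asGM1 follows. Breakdown takes place mainly in lysosomes, where a β-galactosidase and a β-hexosaminidase remove the sugars from the outer end, and sialidases can turn sialylated forms into asialo forms. In mice asGM1 is best known as a surface antigen of natural killer cells, and it is also found on some T cells.

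The 250 bases upstream of the annotated start are shown for Ugcg, B4galt5, Neu1 and Hexa, because these are the enzymes whose treatment difference passed the test within 1 of the sorted populations. The sequences are RefSeq promoters on GRCm38.p6, given 5′ to 3′ on the gene's own strand, and capitals mark GC boxes (GGGCGG, or CCGCCC on the other strand).

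Ugcg (chr4:59189300-59189549, plus strand): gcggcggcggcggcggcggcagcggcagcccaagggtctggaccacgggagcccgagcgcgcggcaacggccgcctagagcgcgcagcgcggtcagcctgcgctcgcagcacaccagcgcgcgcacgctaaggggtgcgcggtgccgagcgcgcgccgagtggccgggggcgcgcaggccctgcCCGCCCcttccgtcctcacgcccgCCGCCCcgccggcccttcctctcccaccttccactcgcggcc
B4galt5 (chr2:167349179-167349428, minus strand): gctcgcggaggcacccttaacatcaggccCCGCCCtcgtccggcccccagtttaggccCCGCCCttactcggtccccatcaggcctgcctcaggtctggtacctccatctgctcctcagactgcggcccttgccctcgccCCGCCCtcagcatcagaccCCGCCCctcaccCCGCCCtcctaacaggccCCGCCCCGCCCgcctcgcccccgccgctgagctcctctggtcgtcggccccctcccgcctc
Neu1 (chr17:34931003-34931252, plus strand): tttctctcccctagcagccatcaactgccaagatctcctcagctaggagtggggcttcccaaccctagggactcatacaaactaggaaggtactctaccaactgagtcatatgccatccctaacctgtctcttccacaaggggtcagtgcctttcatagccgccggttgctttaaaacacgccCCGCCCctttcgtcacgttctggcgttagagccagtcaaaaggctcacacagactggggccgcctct
Hexa (chr9:59539290-59539539, plus strand): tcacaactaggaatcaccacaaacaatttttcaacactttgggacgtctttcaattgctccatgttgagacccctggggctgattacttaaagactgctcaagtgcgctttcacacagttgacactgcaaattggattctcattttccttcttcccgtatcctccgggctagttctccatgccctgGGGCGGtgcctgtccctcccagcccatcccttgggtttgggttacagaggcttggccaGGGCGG

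B4galt5 held 7 GC boxes, some of which overlap, Ugcg and Hexa held 2 each, and Neu1 held 1. At least 1 GC box was found in 32.7% of the 32851 mouse promoters searched over the same window. The E-box CACGTG, found in 6.02% of those promoters, was in none of the 4 windows shown and occurred once in that of Glb1. RefSeq windows are described for 7 of the 9 members, with B4galnt1 and B4galt6 left out, and the windows of B3galt4 and Neu3 each held 1 GC box and no E-box. A match is a description of the letters only.

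Each library held between 58.1 M and 73.2 M counts, where M stands for mega, so that 3 counts correspond to 0.0406 to 0.0524 CPM (counts per 1 M counts of the library). Cd8a was at 1590 to 2581 CPM and Cd3e at 1018 to 1300 CPM in all 12 libraries. Markers of other cells were also present and differed between the sorted populations. The summed level of 10 macrophage genes was 176 to 308 CPM in anti-PD-1 asGM1+ cells and 74.7 to 114 CPM in anti-PD-1 asGM1- cells. Under isotype it was 208 to 298 CPM in asGM1+ cells and 70.2 to 82.0 CPM in asGM1- cells, and 7 of the 10 genes were higher in asGM1+ cells with the treatments averaged. Of 7 genes for plasmacytoid dendritic cells, 5 were lower in asGM1+ cells, among them Siglech, at 0 to 0.489 CPM in the asGM1+ libraries and 25.1 to 71.3 CPM in the asGM1- libraries. The sum over those 7 genes, most of it Irf8, overlapped, at 596 to 806 CPM in asGM1+ cells and 635 to 934 CPM in asGM1- cells. Foxp3, the factor of regulatory T cells, was at 1.91 to 7.13 CPM in asGM1+ libraries and 16.5 to 59.3 CPM in asGM1- libraries. The natural killer cell receptor gene Ncr1 stayed between 0 and 1.85 CPM. Klre1, of the same list of 5 natural killer cell genes, was at 82.7 to 173 CPM. The sum of that list was 108 to 229 CPM in anti-PD-1 asGM1+ cells and 112 to 171 CPM in anti-PD-1 asGM1- cells. Under isotype it was 151 to 173 CPM in asGM1+ cells and 128 to 146 CPM in asGM1- cells. Of the 4 genes tested 0 passed with the treatments averaged, beside 3.59% of all tested genes, at a median log2 difference of 0.63. The part of these other cells in the enzyme levels below was not tested. In bulk samples fewer cells of a type and less RNA per cell cannot be told apart. Among the anti-PD-1 libraries, both of replicate 2 stood apart in the heat shock gene Hspa1a (146 and 151 CPM, where the rest had 22.5 to 32.6). They were not high beside the isotype libraries, since the median over all 12 libraries was 169 CPM and the highest, an isotype library, had 440 CPM. Results are given also without the replicate 2 pair where they change.

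Levels of the 9 enzymes spanned more than 3 orders of magnitude when scaled to transcript length. In CPM per kb of exon, the median over the 12 libraries was 369 for B4galnt1, 74.3 for Ugcg, 30.1 for B4galt5, 29.8 for Hexa, 25.7 for Glb1, 12.8 for Neu1, 9.13 for B3galt4, 3.02 for Neu3 and 0.0827 for B4galt6. B4galnt1, the N-acetylgalactosaminyltransferase that extends lactosylceramide, was the most abundant member in every library and ranked 72 of the 18657 tested genes by mean CPM without length scaling. The next enzyme of the route, B3galt4, which adds the terminal galactose, ranged from 7.72 to 10.7 CPM per kb, against 261 to 433 CPM per kb for B4galnt1. The ranges of B4galt5 (22.7 to 50.7 CPM per kb), Hexa (24.3 to 37.8) and Glb1 (23.9 to 30.6) overlapped, and so did those of Neu1 (8.65 to 17.998) and B3galt4. B4galt6 was covered by 10 to 112 counts a library. Of the 2 other sialidase genes, Neu2 had no count in any library, which allows at most the 3-count floor, and Neu4 was at 0 to 0.210 CPM and was not tested.

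**Figure D1:**
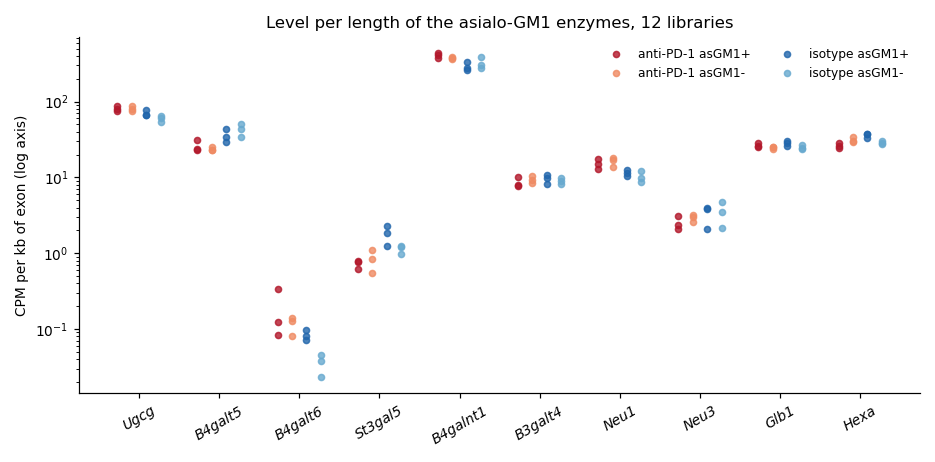
Level of each enzyme, and of St3gal5 beside them, in CPM per kb of exon on a log axis, with 1 point per library and colours for the 4 groups. B4galnt1 lies between 261 and 433 CPM per kb in all libraries, and B4galt6 between 0.0233 and 0.337.

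The first question of the design is whether cells sorted for asGM1 differ in these enzymes from cells sorted against it. None of the 9 enzymes passed the test between the populations, under anti-PD-1, under isotype or with the treatments averaged. The test was edgeR's quasi-likelihood test across all 12 libraries with Benjamini-Hochberg adjustment over 18657 genes, and a gene passed at an adjusted p under 0.05. By that rule 1.58% of all tested genes passed between the populations under anti-PD-1, 1.31% under isotype and 3.59% with the treatments averaged, so that 0 of 9 is close to the share in all genes. At an unadjusted p under 0.05 the enzymes counted 1 under anti-PD-1, 3 under isotype and 2 in the average, beside 11.3%, 12.5% and 16.2% of all tested genes. The median log2 difference of the 9 was 0.00 under anti-PD-1, 0.17 under isotype and 0.03 in the average, beside -0.01, 0.00 and -0.01 over all genes.

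B4galnt1 and B3galt4, which carry out the last pair of steps to asGM1, had averaged differences near 0 between the populations. B4galnt1 was at 1404, 1496 and 1290 CPM in anti-PD-1 asGM1+ cells and at 1283, 1269 and 1342 CPM in anti-PD-1 asGM1- cells. Under isotype it was at 960, 902 and 1152 CPM in asGM1+ cells and at 952, 1038 and 1356 CPM in asGM1- cells. The ranges overlapped under isotype and under anti-PD-1. With the treatments averaged the log2 difference of B4galnt1 was -0.02 ± 0.09 (SE), with a 95% interval of -0.23 to 0.18 (adjusted p = 0.944 by edgeR). Part of B4galnt1 lies opposite Slc26a10, with 715 bases of exon in common on the other strand, and since the counting is not stated to use strand, reads there cannot be assigned with certainty. Slc26a10 had 1105 to 3786 counts a library.

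B3galt4 was at 12.2, 16.2 and 12.5 CPM in anti-PD-1 asGM1+ cells and 14.6, 16.4 and 13.4 CPM in anti-PD-1 asGM1- cells. In isotype libraries it was at 13.1, 15.3 and 16.9 CPM in asGM1+ cells and 15.3, 13.1 and 14.3 CPM in asGM1- cells. All 4 groups overlapped. Its averaged log2 difference between the populations was -0.02 ± 0.11 (SE; 95% interval -0.26 to 0.23, edgeR adjusted p = 0.969).

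The enzymes of the earlier steps did not pass either. Ugcg, the glucosyltransferase that starts the pathway, was at 417, 456 and 387 CPM in anti-PD-1 asGM1+ cells and at 461, 387 and 411 CPM in anti-PD-1 asGM1- cells, which overlap. Under isotype it was at 346, 352 and 405 CPM in asGM1+ cells and at 282, 312 and 333 CPM in asGM1- cells, so that the highest asGM1- library lay below the lowest asGM1+ library. That isotype difference was 0.25 ± 0.10 on the log2 scale (SE, edgeR adjusted p = 0.345), against 0.00 ± 0.10 under anti-PD-1 (edgeR adjusted p = 1). B4galt5 and B4galt6, both of which add the galactose of lactosylceramide, had log2 differences of opposite sign under isotype. For B4galt5 that difference was -0.27 ± 0.17 (SE), with an edgeR adjusted p of 0.583. For B4galt6 it was 1.22 ± 0.54 (SE), with an edgeR adjusted p of 0.372. Under anti-PD-1 the B4galt6 difference was 0.64 ± 0.51 (edgeR adjusted p = 0.768), and without anti-PD-1 asGM1+ replicate 2 it was -0.16, with adjusted p from 0.561 to 1 over the alternatives tried.

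Among the breakdown enzymes, Hexa, the α subunit of β-hexosaminidase A, had the lowest unadjusted p between the populations under both treatments. Hexa was at 48.4, 51.8 and 56.3 CPM in anti-PD-1 asGM1+ cells and at 58.6, 67.7 and 60.6 CPM in anti-PD-1 asGM1- cells. Under isotype it was at 75.0, 75.4 and 66.9 CPM in asGM1+ cells and at 60.5, 57.4 and 55.0 CPM in asGM1- cells. The groups did not overlap under either treatment, with asGM1+ cells the lower under anti-PD-1 and the higher under isotype. The log2 difference was -0.26 ± 0.09 (SE) under anti-PD-1, at an edgeR adjusted p of 0.287, and 0.33 ± 0.09 (SE) under isotype, at 0.140. Under isotype Hexa passed with DESeq2 (adjusted p = 0.0251) and with the asGM1+ and asGM1- libraries of 1 number treated as a pair by a random effect in limma voom (0.0328), and not with the pair as a fixed block in edgeR (0.0633), in a range of 0.0251 to 0.327 over all alternatives.

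Glb1, the lysosomal β-galactosidase that removes the terminal galactose of GM1 and asGM1, was at 78.6, 84.999 and 75.8 CPM in anti-PD-1 asGM1+ cells and 75.6, 76.5 and 71.8 CPM in anti-PD-1 asGM1- cells. Under isotype it was at 92.0, 77.8 and 86.1 CPM in asGM1+ cells and 73.3, 72.0 and 79.6 CPM in asGM1- cells, and the ranges overlapped under both treatments. Within the pairs of 1 number Glb1 was higher in asGM1+ cells in 3 of 3 anti-PD-1 pairs and 3 of 3 isotype pairs. The share of all tested genes with 1 sign in all pairs is not given here. The averaged difference was 0.14 ± 0.06 on the log2 scale (SE, edgeR adjusted p = 0.288), with adjusted p = 0.149 under a fixed pair block, 0.125 under a random pair effect and a range of 0.125 to 0.664 over the alternatives. Glb1 shares 165 bases of exon on the same strand with Tmppe, which had 744 to 1345 counts a library. Neu1, the lysosomal sialidase, had an averaged difference of 0.03 ± 0.11 (SE, edgeR adjusted p = 0.926), and Neu3, the sialidase of the plasma membrane, one of -0.15 ± 0.21 (SE, edgeR adjusted p = 0.792).

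**Figure D2:**
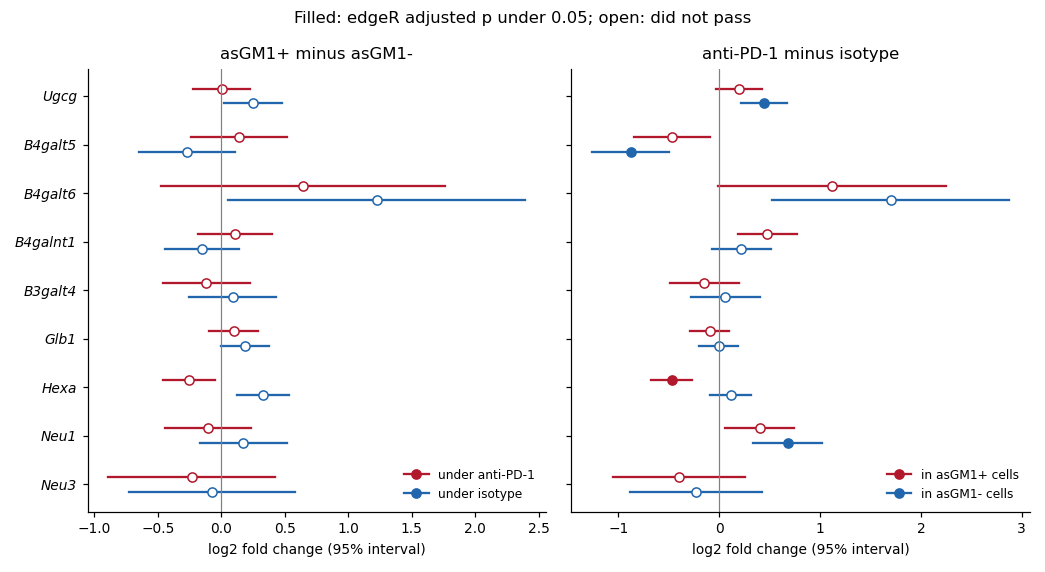
Log2 fold change with its 95% interval for each enzyme, asGM1+ minus asGM1- on the left under each treatment, and anti-PD-1 minus isotype on the right in each population. Filled points passed the edgeR test, which were Ugcg, B4galt5 and Neu1 in asGM1- cells and Hexa in asGM1+ cells, all in the right panel.

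The second question is how the enzymes differ after anti-PD-1. With the populations averaged, Ugcg, B4galt6, B4galnt1 and Neu1 were higher after anti-PD-1 and B4galt5 was lower, 5 of the 9 enzymes, while 18.1% of all tested genes passed. Within asGM1- cells Ugcg and Neu1 were higher and B4galt5 lower, 3 of 9 beside 8.57% of all genes. Within asGM1+ cells Hexa was lower, 1 of 9 beside 6.73% of all genes. The median log2 difference over the 9 enzymes was -0.05 in the average, 0.11 in asGM1- cells and -0.10 in asGM1+ cells, beside -0.02, -0.01 and -0.01 over all genes. The averaged comparison rests on the same libraries as the other 2, so the counts are not independent. It also treats the asGM1+ and asGM1- libraries of 1 number, which correlated within a treatment, as independent of each other. With the pair as a random effect in limma voom, 2319 genes passed the averaged comparison, against 3384, and B4galt6 did not pass (adjusted p = 0.133).

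Signs of cell state and cell makeup moved with the treatment as well. The sum of 6 heat shock genes was 2039 to 2597 CPM in the anti-PD-1 libraries and 2954 to 3849 CPM in the isotype libraries, and 5 of the 6 were lower after anti-PD-1. The sum of 5 genes of CD4+ and regulatory T cells was 1032 to 1382 CPM after anti-PD-1 and 433 to 762 CPM after isotype, where Ctla4, which activated CD8+ T cells also express, was the gene that passed. Cd8a was lower after anti-PD-1, with a log2 difference of -0.34 ± 0.06 (SE, edgeR adjusted p = 0.00381). Cd3g was also lower, and the other 4 of the 6 CD8+ T cell genes did not pass. Of the 10 macrophage genes, C1qa and C1qc were lower and Cd68 higher after anti-PD-1, and the sum of the list overlapped between the treatments in both populations. Bst2 and Ly6d of the plasmacytoid dendritic cell list and the collagen gene Col3a1 were lower, and 2 of 4 natural killer cell genes tested, Eomes and Klrb1c, passed in opposite directions. The part of these in the treatment differences of the enzymes, among them the lysosomal Hexa and Neu1, was not tested.

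B4galt5, a main lactosylceramide synthase of mouse tissues, gave the lowest adjusted p of the 9 enzymes. In asGM1+ cells it was at 98.1, 102 and 132 CPM after anti-PD-1 and at 188, 145 and 127 CPM after isotype, which overlap by 1 library of each group. Its asGM1- libraries were at 98.0, 107 and 97.6 CPM after anti-PD-1 and at 218, 190 and 148 CPM after isotype, with no overlap. The difference was -0.88 ± 0.17 in asGM1- cells (log2, SE), a fold of 0.544 at an edgeR adjusted p of 0.0103. The asGM1+ difference was -0.47 ± 0.17, a fold of 0.722 that did not pass (edgeR adjusted p = 0.144). Averaged over the populations it was -0.67 ± 0.12 (edgeR adjusted p = 0.00310), and it passed under all 19 alternatives, with adjusted p from 3.4e-06 to 0.0199.

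B4galt6, the second lactosylceramide synthase, was scarce in every library. The asGM1+ libraries had 0.489, 1.96 and 0.720 CPM after anti-PD-1 and 0.413, 0.472 and 0.565 CPM after isotype. The asGM1- libraries had 0.471, 0.800 and 0.750 CPM after anti-PD-1 and 0.222, 0.264 and 0.135 CPM after isotype. The asGM1- groups did not overlap and the asGM1+ groups did. The highest value was that of anti-PD-1 asGM1+ replicate 2, which in Hspa1a lay above most anti-PD-1 libraries, though not above the isotype libraries. The part of that state in its B4galt6 value was not tested. The averaged log2 difference was 1.41 ± 0.37 (SE), a fold of 2.65 at an edgeR adjusted p of 0.0226. Without that library the log2 difference was 1.01 and the call was lost (adjusted p = 0.0640), as it was without anti-PD-1 asGM1- replicate 3 (1.37, 0.0515), with anti-PD-1 replicate 2 left out in both populations (0.94, 0.127), with limma voom (0.0664) and with the pair as a random effect (0.133). Over all alternatives the adjusted p ranged from 0.00655 to 0.133. Within the populations B4galt6 did not pass, at 1.12 ± 0.52 in asGM1+ cells and 1.70 ± 0.54 in asGM1- cells (edgeR adjusted p = 0.244 and 0.0763). In asGM1- cells it passed with DESeq2 (0.0375) and without anti-PD-1 asGM1+ replicate 2 (0.0445), in a range of 0.0375 to 0.192.

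Ugcg had the CPM values already given, of which the lowest after anti-PD-1 in asGM1- cells, 387, lay above the highest after isotype, 333. In asGM1+ cells the groups overlapped, at 387 to 456 CPM after anti-PD-1 and 346 to 405 CPM after isotype. The log2 difference was 0.44 ± 0.10 in asGM1- cells (SE), a fold of 1.36 at an edgeR adjusted p of 0.0233, and 0.19 ± 0.10 in asGM1+ cells, at 0.329. The asGM1- call was lost without isotype asGM1- replicate 1 (0.0983) or 2 (0.0625) and without anti-PD-1 asGM1- replicate 1 (0.102) or 3 (0.0686), in a range of 0.00151 to 0.102. The averaged difference of 0.32 ± 0.07 (edgeR adjusted p = 0.0118) passed under all 19 alternatives, from 0.000812 to 0.0369.

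B4galnt1 was higher after anti-PD-1 with the populations averaged, by 0.35 ± 0.09 on the log2 scale (SE), a fold of 1.27 at an edgeR adjusted p of 0.0249. In asGM1+ cells the 3 anti-PD-1 libraries, at 1290 to 1496 CPM, all lay above the 3 isotype libraries, at 902 to 1152 CPM. In asGM1- cells the isotype libraries spread from 952 to 1356 CPM and overlapped the anti-PD-1 libraries, at 1269 to 1342 CPM. The difference was 0.48 ± 0.13 in asGM1+ cells (edgeR adjusted p = 0.0554) and 0.22 ± 0.13 in asGM1- cells (0.367). In asGM1+ cells it passed with DESeq2 (0.0103), with limma voom (0.0406), with the pair as a random effect (0.0282), with the number as a block across all groups (0.0413), and without isotype asGM1- replicate 1 (0.0483) or 3 (0.0209) or isotype asGM1+ replicate 3 (0.0358), in a range of 0.0103 to 0.217. The averaged call was narrow, and over 19 alternatives its adjusted p ranged from 0.00404 to 0.0927. It was lost without replicate 1 or 2 of isotype asGM1- cells (0.0604 for each) and of isotype asGM1+ cells (0.0583 and 0.0556). It was also lost without replicate 1 or 3 of anti-PD-1 asGM1- cells (0.0502 and 0.0579), without replicate 1 or 2 of anti-PD-1 asGM1+ cells (0.0501 and 0.0634), and with anti-PD-1 replicate 2 left out in both populations (0.0927).

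B3galt4 did not pass in any treatment comparison. Its averaged log2 difference was -0.05 ± 0.11 (SE), with a 95% interval of -0.29 to 0.20 and an edgeR adjusted p of 0.822. Its 12 libraries lay between 12.2 and 16.9 CPM.

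Neu1 was higher after anti-PD-1. In asGM1+ cells it was at 48.8, 65.9 and 55.4 CPM after anti-PD-1 and at 39.4, 46.4 and 43.1 CPM after isotype. Its values in asGM1- cells were 51.6, 67.2 and 64.2 CPM after anti-PD-1 and 32.3, 46.0 and 36.1 CPM after isotype. Every anti-PD-1 library lay above every isotype library, and the share of all tested genes that separate in this way is not given here. The averaged difference was 0.54 ± 0.11 on the log2 scale (SE), a fold of 1.45 at an edgeR adjusted p of 0.00605, and it passed under all 19 alternatives (9.2e-05 to 0.0429). In asGM1- cells it was 0.68 ± 0.16 (edgeR adjusted p = 0.0215), a call lost without isotype asGM1- replicate 1 (0.0924) or 3 (0.0664), without anti-PD-1 asGM1- replicate 2 (0.0811) or 3 (0.0844) and with anti-PD-1 replicate 2 left out in both populations (0.0820), in a range of 0.00102 to 0.0924. The asGM1+ difference was 0.40 ± 0.16 (edgeR adjusted p = 0.164), which passed with the number as a block across all groups (0.0285), in a range of 0.0285 to 0.475.

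Neu3 was at 10.2, 7.80 and 6.996 CPM in anti-PD-1 asGM1+ cells and 12.7, 6.94 and 13.3 CPM in isotype asGM1+ cells. Among asGM1- libraries it was at 10.8, 8.73 and 9.96 CPM after anti-PD-1 and 15.8, 7.21 and 11.6 CPM after isotype. The groups overlapped in both populations, and the averaged difference was -0.32 ± 0.21 (log2, SE; edgeR adjusted p = 0.346). The 95% interval, -0.78 to 0.15, leaves a wide span on the lower side. Glb1, with the CPM values already given, had an averaged treatment difference of -0.05 ± 0.06 (SE; 95% interval -0.19 to 0.08, edgeR adjusted p = 0.624).

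**Figure D3:**
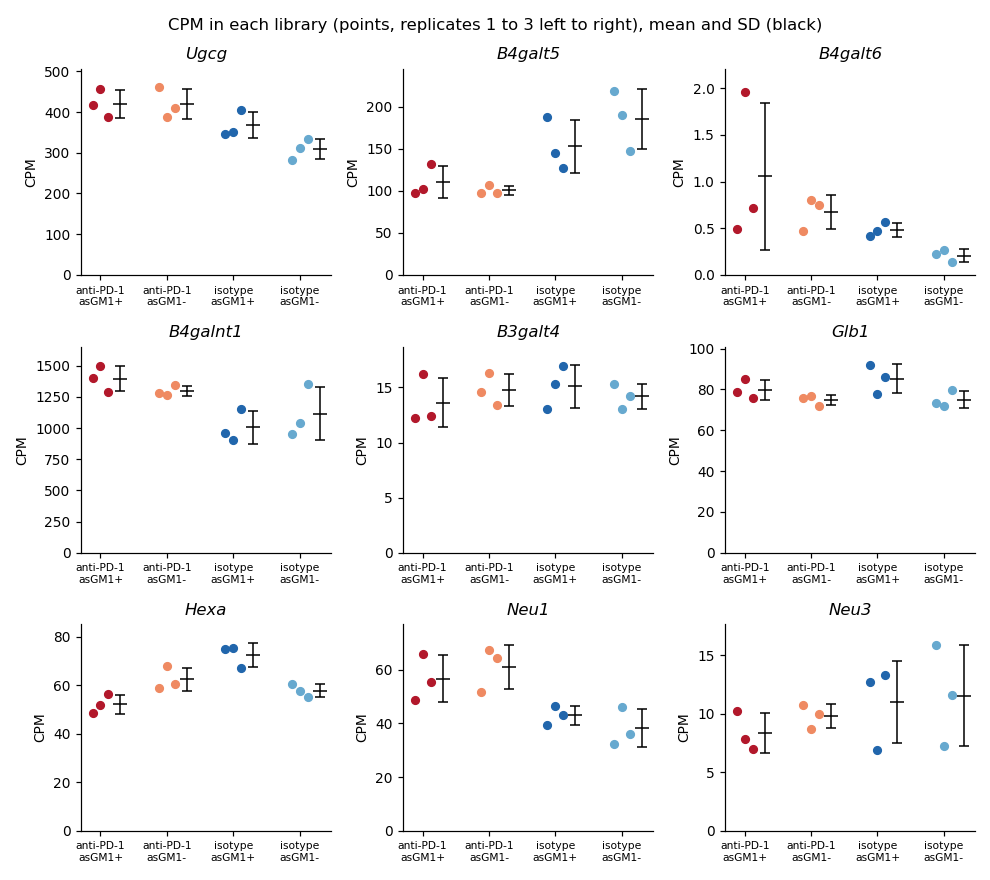
CPM of each enzyme in the 12 libraries, with points for replicates 1 to 3 from left to right in each group and black bars for the mean and SD (n = 3). Neu1 is at 48.8 CPM or more in all anti-PD-1 libraries and at most 46.4 CPM in the isotype libraries. The mean of Hexa is lowest in anti-PD-1 asGM1+ cells and highest in isotype asGM1+ cells, though single libraries overlap with those of other groups.

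Hexa showed a treatment difference in asGM1+ cells, where it averaged 52.2 ± 3.94 CPM after anti-PD-1 and 72.4 ± 4.81 CPM after isotype (SD, n = 3 each). The log2 difference there was -0.47 ± 0.09 (SE), a fold of 0.720 at an edgeR adjusted p of 0.0119. The call was lost with only the 6 libraries compared (0.0618), without anti-PD-1 asGM1+ replicate 1 (0.0629) or 2 (0.0501) and with anti-PD-1 replicate 2 left out in both populations (0.0549), in a range of 3.3e-05 to 0.0629. In asGM1- cells Hexa averaged 62.3 ± 4.76 CPM after anti-PD-1 and 57.6 ± 2.74 CPM after isotype (SD, n = 3 each), a log2 difference of 0.11 ± 0.09 (edgeR adjusted p = 0.537). The average over the populations, -0.18 ± 0.07, did not pass by edgeR (adjusted p = 0.0841) and passed with DESeq2 (0.0302), in a range of 0.0302 to 0.191.

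Whether the treatment difference depends on the population was tested as an interaction, for which edgeR called no gene, 0% of all tested genes, while 1329 genes had an unadjusted p under 0.05, DESeq2 called 136, and the fit with the pair as a block called 5. Hexa had the lowest p of the 9 enzymes, with an interaction of -0.59 ± 0.13 on the log2 scale (SE), an unadjusted p of 0.000934 and an edgeR adjusted p of 0.438. Hexa passed with DESeq2 (adjusted p = 0.0106), the sole alternative in which it did, in a range of 0.0106 to 0.810. The summed level of 34 lysosomal genes had its highest values in the same group as Hexa, at 6294 to 7094 CPM in anti-PD-1 asGM1+ cells, 6564 to 7176 CPM in anti-PD-1 asGM1- cells, 7300.3 to 8153 CPM in isotype asGM1+ cells and 5818 to 6402 CPM in isotype asGM1- cells. Ctsd, the gene of a lysosomal protease, was the largest part of that sum, at 2468 to 4393 CPM. By edgeR it was higher in asGM1+ than in asGM1- cells under isotype (log2 difference 0.58 ± 0.11, SE, adjusted p = 0.0288). That call was lost under 9 of 21 alternatives, among them without the anti-PD-1 replicate 2 pair, in a range of 4.1e-05 to 0.129. Ctsd was lower after anti-PD-1 in asGM1+ cells (-0.54 ± 0.11, edgeR adjusted p = 0.0135), a call lost under 3 of 20 alternatives (4.7e-05 to 0.0612). The part of these lysosomal genes in the Hexa values was not tested.

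Pairs of genes whose enzymes share or compete for a substrate were compared as log2 ratios, each library's CPM plus 0.5, with the 6 asGM1+ against the 6 asGM1- libraries. The exact two-sided permutation test shuffled population within treatment over 400 arrangements, so that its smallest p was 0.005, and p was adjusted over the 3 ratios. The shuffling did not keep the pairs of 1 number together. Each SD below spans both treatments and so also holds the difference between them. The ratio of B4galnt1 to St3gal5, the sialyltransferase that diverts lactosylceramide to gangliosides, averaged 8.40 ± 0.88 in asGM1+ cells and 8.64 ± 0.45 in asGM1- cells (SD, n = 6 each; exact p = 0.295, adjusted 0.443), and it was higher in asGM1+ cells in 2 of 6 pairs. Under anti-PD-1 this ratio was 9.36, 9.21 and 8.98 in asGM1+ cells and 9.37, 8.89 and 8.64 in asGM1- cells, which overlap. After isotype the B4galnt1 to St3gal5 ratio was 7.50, 7.92 and 7.47 in asGM1+ cells and 8.04 to 8.504 in asGM1- cells, with every asGM1+ library below every asGM1- library, and neither treatment was tested alone. The ratio of B4galt5 to B4galt6 averaged 6.77 ± 0.78 in asGM1+ cells and 7.23 ± 0.88 in asGM1- cells (SD, n = 6 each; exact p = 0.125, adjusted 0.375), and it was higher in asGM1+ cells in 1 of 6 pairs. B4galt6 lay at 0.135 to 1.96 CPM, with a median of 0.481, so the added 0.5 CPM is about as large as its values. The addition lowers this ratio and shrinks the differences in it that come from B4galt6. Under anti-PD-1 the B4galt5 to B4galt6 ratio was 6.64, 5.38 and 6.77 in asGM1+ cells and 6.66, 6.37 and 6.29 in asGM1- cells. In the isotype libraries it was 7.69, 7.23 and 6.90 in asGM1+ cells and 8.25, 7.96 and 7.86 in asGM1- cells, again with no overlap there.

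St3gal5, which makes GM3 and so takes lactosylceramide away from the asialo route, was low. The asGM1+ libraries were at 1.64, 2.03 and 2.06 CPM after anti-PD-1 and 4.82, 3.23 and 6.02 CPM after isotype, with no overlap. The asGM1- libraries were at 1.45, 2.18 and 2.88 CPM after anti-PD-1 and 3.12, 2.54 and 3.24 CPM after isotype. With the populations averaged St3gal5 was lower after anti-PD-1, at -0.87 ± 0.21 (log2, SE; edgeR adjusted p = 0.0130), a call lost with anti-PD-1 replicate 2 left out in both populations (0.0536, in a range of 0.000871 to 0.0536). Between asGM1+ and asGM1- cells it did not pass (0.24 ± 0.21, edgeR adjusted p = 0.640). Of the 7 ganglioside sialyltransferases tested of 10 listed, 4 were higher after anti-PD-1 (St3gal1, St6galnac3, St6galnac4 and St6galnac6) and St3gal5 was lower, 5 of 7 beside 18.1% of all tested genes. With the treatments averaged 3 of the 7 were lower in asGM1+ cells (St3gal1, St3gal2 and St6galnac3) and none was higher, beside 3.59% of all tested genes. Since this list was chosen with earlier results of these data known, its counts are a description only. St6galnac3, which adds sialic acid to N-acetylgalactosamine of ganglio-type chains, was at 12.7, 20.8 and 14.1 CPM in anti-PD-1 asGM1+ cells and 18.8, 28.6 and 30.7 CPM in anti-PD-1 asGM1- cells. Under isotype St6galnac3 was at 6.36, 4.36 and 5.02 CPM in asGM1+ cells and 11.95, 14.3 and 11.4 CPM in asGM1- cells. Its averaged log2 difference was 1.32 ± 0.17 for anti-PD-1 and -0.99 ± 0.17 for asGM1+ cells (SE, edgeR adjusted p = 0.000333 and 0.00742).

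Most partners of the breakdown enzymes did not pass in either averaged comparison. Of 11 such genes tested of 14 listed, Galc was higher and Smpd1 lower after anti-PD-1 with the populations averaged, beside 18.1% of all tested genes, and by the unpaired edgeR test none passed between the populations. Galc, the lysosomal galactosylceramidase, was at 16.1, 11.5 and 11.3 CPM in anti-PD-1 asGM1+ cells and 7.15, 6.31 and 5.63 CPM in isotype asGM1+ cells. In asGM1- cells Galc was at 12.3, 9.16 and 9.88 CPM after anti-PD-1 and 6.33, 6.15 and 5.79 CPM after isotype. Its averaged log2 difference was 0.90 ± 0.13 (SE, edgeR adjusted p = 0.000729). Gm2a, the GM2 activator protein, had an averaged difference of -0.35 ± 0.09 (log2, SE) between asGM1+ and asGM1- cells, at an edgeR adjusted p of 0.0589. Gm2a passed as lower in asGM1+ cells with the pair as a fixed block in edgeR (adjusted p = 0.00387) or as a random effect in limma voom (0.00583), and in 8 of 20 alternatives in all, in a range of 0.00387 to 0.234. Gm2a was at 243, 198 and 184 CPM in anti-PD-1 asGM1+ cells and 290, 268 and 248 CPM in anti-PD-1 asGM1- cells, and at 253, 202 and 224 CPM in isotype asGM1+ cells and 302, 248 and 307 CPM in isotype asGM1- cells. Ctsa, the protective protein that holds Neu1 and Glb1 in a complex, had a treatment difference of 0.13 ± 0.07 (edgeR adjusted p = 0.237), and Psap, the precursor of the saposins, one of -0.08 ± 0.07 (0.491).

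The supply side of the pathway was mixed. The counts of these lists stand beside 18.1% of all tested genes for anti-PD-1 against isotype and 3.59% between the populations. Of 13 ceramide synthesis genes tested of 17 listed, Cers2, a ceramide synthase, was higher and Degs1, a dihydroceramide desaturase, lower after anti-PD-1, and none passed between the populations. Of 10 genes for glycolipid transport and sugar donors, Cmas, Plekha8 and Slc35a2 were higher and Nans lower after anti-PD-1, and Nans was higher in asGM1+ cells. Cmas, which activates sialic acid, was higher by 0.42 ± 0.06 (log2, SE; edgeR adjusted p = 0.000588). Of 9 relatives of the galactosyl- and N-acetylgalactosaminyltransferases tested of 11 listed, B4galt1, a galactosyltransferase of glycoproteins, was higher by 0.51 ± 0.07 (edgeR adjusted p = 0.000433) and B3galt6 lower, and none passed between the populations. Of 5 genes of other glycolipid branches tested of 9 listed, B3galt5 was higher after anti-PD-1 and lower in asGM1+ cells. Of 34 lysosomal genes, 6 were higher (Lamp2, Ppt1, Scarb2, Hgsnat, Tpp1 and Ctsb) and 4 lower (Tfeb, Ctsz, Ctss and Grn) after anti-PD-1, and with the treatments averaged Ctsl, Ctsh and Grn were lower in asGM1+ cells. B4galt1, Galc, St3gal1, St6galnac3, Cmas, Lamp2, Ppt1, Scarb2, Hgsnat, Tfeb and Ctsz passed the averaged treatment comparison under all 19 alternatives, and the other calls of these lists did not. Between the populations St3gal2, St6galnac3, Ctsl, Ctsh and Grn passed under all 20 alternatives. St3gal1 was lost with anti-PD-1 replicate 2 left out in both populations (adjusted p = 0.0696), Nans also without anti-PD-1 asGM1- replicate 2 alone (0.0546), and B3galt5 under 14 of the 20.

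**Figure D4:**
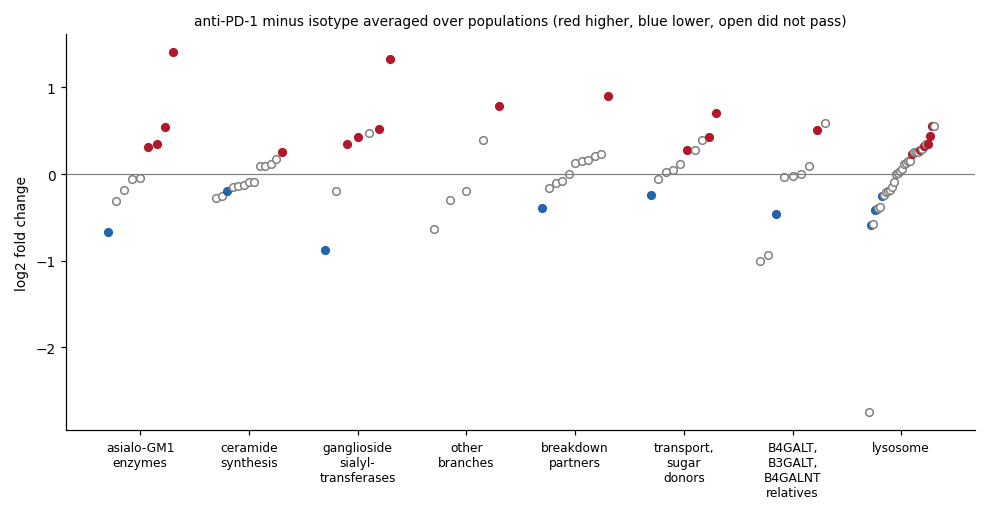
Log2 fold change of anti-PD-1 over isotype with the populations averaged, 1 point per tested gene, for the 9 asGM1 enzymes and 7 neighbouring gene lists. Red points were higher, blue points lower and open points did not pass the edgeR test, and most lists hold both red and blue points.

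The genes whose pattern over the 12 libraries was most like that of B4galnt1, among 9356 genes whose mean log2 CPM reached 3, were Cul3 (Pearson r = 0.97, Spearman rho = 0.93), Crybg1 (0.97 and 0.93) and Fyn (0.96 and 0.89). For B3galt4 they were Mvp (Pearson r = 0.82, Spearman rho = 0.93), Endog (0.79 and 0.80) and Pip5k1c (0.78 and 0.69). These correlations describe libraries that share group, depth and sort, and carry no test.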

How the data were processed

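The authors deposited a table of raw counts per gene (12 columns, 1 per library) made with HISAT2 and StringTie on mm39, per the submitters' processing notes; versions, strand and handling of multiply mapped reads are not given in the sources used here. TRIzol extraction with TruSeq mRNA and SMARTer ultra low input kits is given per the labels' protocols. Of all values, 61.4% were 0, and 310 rows had no symbol. Genes were filtered by group (edgeR 4.0.16, filterByExpr), scaled by TMM (factors 0.970 to 1.04) and fitted with 4 group means in edgeR's quasi-likelihood model (R 4.3.3; 8 residual degrees of freedom); the method was tested on simulated data. CPM use the scaled totals. Lengths are GENCODE exon unions on GRCm38, used for length scaling only. Alternatives were RLE, no filter, DESeq2 1.42.0, limma 3.58.1 voom, only the 6 libraries compared, replicate blocks and leaving libraries out. Libraries with 1 number in 1 treatment correlated in their deviations from the group means (r from 0.121 to 0.298 over 6 pairs), whereas across treatments the same numbers did not (-0.118 to 0.0497), so numbers pair libraries within a treatment. Chi-square values of replicate pairs, divided by their degrees of freedom, ran from 43.5 to 121, well above counting noise. Counts of 3 or fewer and the floors cover counting error only. Named genes were the 9 members, genes of the pathway lists past the threshold, a few partners and marker genes, and for B4galnt1 and B3galt4 the 3 genes closest in pattern. The members and lists were chosen with earlier results of these data known. Some genes, and 1 of the 3 ratios over which p was adjusted, are not reported here.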

Additional observations from a re-analysis of the deposited data

Results flagged for a closer look

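For Hexa and Neu1 the pair differences within a treatment had opposite signs under anti-PD-1 and isotype, though by the edgeR test neither gene passed between the populations under either treatment. For Hexa the mean log2 difference of asGM1+ over asGM1- cells was -0.25 in the anti-PD-1 pairs, higher in asGM1+ cells in 0 of 3 pairs, and 0.33 in the isotype pairs, higher in 3 of 3. The anti-PD-1 difference minus the isotype difference was -0.58. For Neu1 the mean was -0.11 in the anti-PD-1 pairs, higher in 0 of 3, and 0.18 in the isotype pairs, higher in 3 of 3, a difference of -0.29. The share of all tested genes with such signs is not given here. Without anti-PD-1 asGM1+ replicate 1 the fitted Neu1 difference under anti-PD-1 was 0.011. The interaction test of edgeR did not pass for Hexa (adjusted p = 0.438) or Neu1 (adjusted p = 0.899).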

How the results depend on the processing

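The number of the 9 enzymes that passed was 0 between asGM1+ and asGM1- cells in all 3 comparisons under every alternative, except under isotype, where DESeq2 and the replicate block with the pair as a random effect each gave 1 (Hexa); the fixed pair block changed no call on an enzyme there. For anti-PD-1 against isotype, with single libraries or the replicate 2 pair left out, the count ran from 1 to 4 in asGM1- cells, from 0 to 2 in asGM1+ cells and from 3 to 5 in the average. In asGM1+ cells it was 2 with DESeq2, limma voom and the random pair block, 3 with the replicate block on a number shared by all groups and 0 with only the 6 libraries compared. Of all genes, these fits called 2264, 1235, 1316, 1356 and 677 in that order, against 1255 by the main edgeR test. Between the populations under isotype, DESeq2 called 798 genes and the random pair block 869, against 244. DESeq2 gave 1 enzyme (Hexa) for the interaction, where it called 136 genes in all. Of the 9 calls on enzymes 4 held under every alternative, and 5 were lost when libraries were left out; of 65 calls on the pathway lists 19 held.

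Differences that had not passed changed sign when libraries were left out, and the cause was not tested; most were near 0, while that of B4galt6 under anti-PD-1 was 0.64. Between asGM1+ and asGM1- cells under isotype the log2 differences ran from -0.26 to 0.013 for B4galnt1, -0.0018 to 0.18 for B3galt4 and -0.32 to 0.22 for Neu3. Under anti-PD-1 they ran from -0.13 to 0.073 for Ugcg, -0.012 to 0.23 for B4galt5, -0.16 to 1.01 for B4galt6 and -0.23 to 0.011 for Neu1. With the treatments averaged they ran from -0.077 to 0.060 for B4galnt1, -0.088 to 0.031 for B3galt4 and -0.028 to 0.11 for Neu1. For anti-PD-1 against isotype in asGM1- cells they ran from -0.021 to 0.13 for B3galt4, -0.034 to 0.040 for Glb1 and -0.48 to 0.062 for Neu3, and averaged from -0.16 to 0.00057 for B3galt4. The Neu3 interaction ran from -0.46 to 0.086.

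The number of genes called across the table varied widely, and so did the background shares. Between the populations under anti-PD-1 the count was 295, against 16 to 354 with single libraries or the anti-PD-1 replicate 2 pair left out. With other settings, among them only the 6 libraries compared, it was 205 to 891. The same ranges were 75 to 230 and 93 to 869 for the 244 under isotype, and 280 to 781 and 516 to 1686 for the 670 in the average. For anti-PD-1 against isotype they were 730 to 1737 and 1257 to 2756 for the 1598 in asGM1- cells, 604 to 1252 and 677 to 2264 for the 1255 in asGM1+ cells, and 2108 to 3451 and 2319 to 4438 for the 3384 averaged. B4galt6 had 10 to 112 counts a library, and the part of depth in the spread of its values was not tested.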
